A study of Brassica rapa subsp. pekinensis with 2 samples.

Results

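The genes described here encode proteasome subunits and autophagy proteins of Chinese cabbage (Brassica rapa subsp. pekinensis). They are the transcripts that matched the reference annotation and whose description held the word proteasome or autophagy. Of 34213 such reference transcripts, 100 were chosen in this way, 64 for the proteasome and 36 for autophagy, and 0 carried both words. The rule used no measured value, although earlier results of these data were known when it was set. RNA of the double haploid line ‘FT’ was sequenced in 2 ribosomal RNA-depleted libraries. ‘Ant’ held anthers of mixed stages stripped from buds of flowering plants whose germinated seeds had been vernalized. ‘Mix’ held whole seedlings that had 4 true leaves, with root, stem and leaf together; the study's methods state no vernalization for them, whereas the sample labels give it for both. Organ, plant age and possibly vernalization therefore cannot be told apart, and neither can a change of level in a cell type and a change in the number of such cells.

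The proteasome and autophagy are the main routes by which plant cells break down protein. In the proteasome, the barrel-shaped 20S core of alpha and beta rings holds the proteolytic sites. The 19S particle receives ubiquitinated proteins, and its ATPases unfold them and feed them into the core. In autophagy, a double membrane closes around cytoplasm and carries it to the vacuole. The ATG1 kinase complex starts the process, ATG9 and ATG2 supply the membrane, ATG18 proteins bind its phosphoinositide, and a ubiquitin-like system attaches ATG8 to its lipid. In rice, autophagy is required in the tapetum, the anther layer that feeds pollen.

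Levels are FPKM, the fragments of a transcript scaled to its length and to the library total. The ratio used throughout is log2((FPKM Ant + 1)/(FPKM Mix + 1)). A transcript is called higher or lower past an absolute value of 2, the log2 fold-change cutoff of the study for mRNA. The study joined that cutoff with a limit on the P value and stated no pseudocount, so the calls here are not its calls. The ‘Ant’ library held 216371346 estimated counts over its transcripts, and the ‘Mix’ library 190816341. Each group was a single library, so no difference below has a replicate behind it and no p-value is given. One window of 500 kb on chromosome A06, singled out after the values were seen, held 56.2% of the counts of ‘Mix’ and 2.07% of those of ‘Ant’, and 0 of the 100 genes lay in it. The median ratio over 17562 transcripts with an FPKM of at least 1 in both libraries was 0.54. It was -0.17 when both libraries were rescaled without the window, which lowered ratios between high levels by 0.87. Directions are therefore also given with the ratios centred on that median and without the window.

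The tissue of each library showed in the markers. Of 51 pollen transcripts, 27 were listed at 0 in ‘Mix’, and the summed FPKM of the list was 15723 in ‘Ant’ and 122 in ‘Mix’. The pollen list was not uniform: of 42 with an FPKM of at least 1 in either library, 34 had a ratio above 0 and 8 below. Of 20 tapetum and pollen coat transcripts, 15 were listed at 0 in ‘Mix’, and the sums were 4863 and 0.706. The 47 transcripts of green tissue summed to 76.0 in ‘Ant’ and to 23182 in ‘Mix’. Of 12 transcripts of root endodermis and xylem, 11 were listed at 0 in ‘Ant’, and the sums were 1.01 and 35.9. The part of these cell types in the values of the 100 genes was not tested.

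Proteasome transcripts lay close together and near the median of the transcriptome. Of the 64, 49 reached an FPKM of 1 in either library, and 15 did not. Among the 49, 2 were called higher in ‘Ant’ and 1 lower, whereas over the 19909 reference transcripts that passed the same filter 21.2% were called higher and 9.48% lower. At a cutoff of 1, 12 were higher and 2 lower, against 41.0% and 21.7% of all. The median ratio was 0.49, with the middle 50% of members from -0.04 to 0.99. For all reference transcripts the median was 0.62 and the middle 50% ran from -0.79 to 1.74. The sign of the proteasome median turned with the scaling, to -0.05 when centred and to -0.25 without the window. With the cutoff of 2, 0 members were then higher and 1 lower when centred, against 15.2% and 14.7% of all, and 0 higher and 2 lower without the window, against 16.3% and 17.2%. The summed FPKM of the 64 transcripts was 859 in ‘Ant’ and 594 in ‘Mix’, a ratio of 1.45 that became 0.789 without the window.

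**Figure D1:**
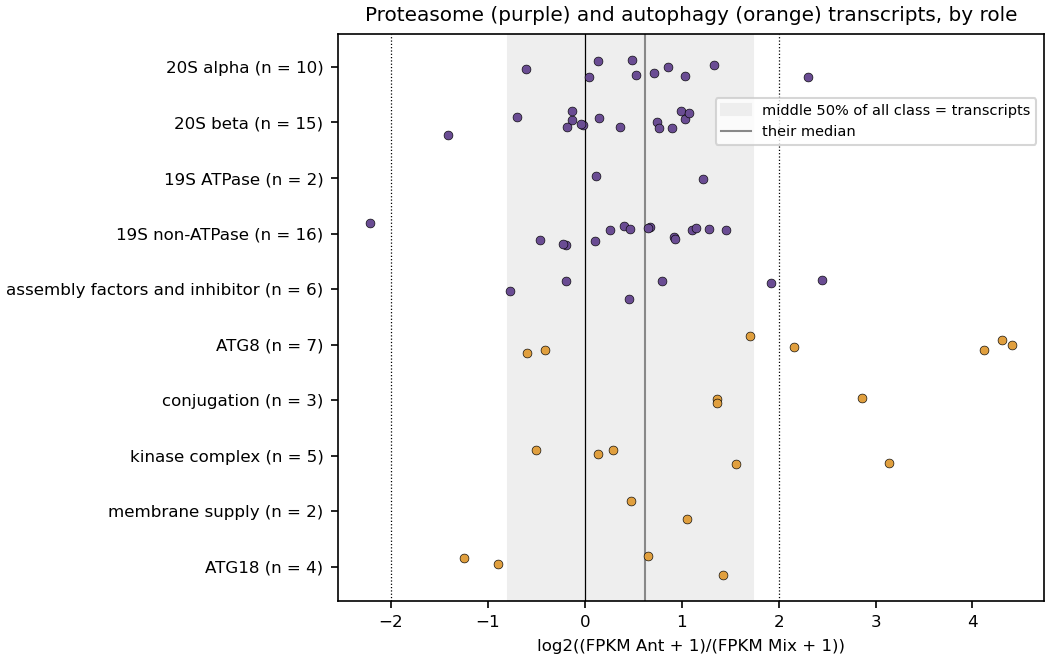
Log2 ratio of ‘Ant’ to ‘Mix’ for each proteasome transcript (purple) and autophagy transcript (orange) with an FPKM of at least 1 in either library, 1 point per transcript and 1 library per group; rows are roles, points are spread vertically to be seen, dotted lines mark the cutoffs of 2, and the grey band is the middle 50% of all reference transcripts (-0.79 to 1.74). Most proteasome points lie inside the band, and 4 of 7 ATG8 points lie beyond the upper cutoff, against 21.2% of all reference transcripts.

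The 20S core was represented by 31 transcripts, 13 alpha and 18 beta. The alpha transcripts summed to 261 FPKM in ‘Ant’ and 182 in ‘Mix’, and the beta transcripts to 277 and 190. These ratios of 1.43 and 1.46 became 0.782 and 0.796 without the window. The highest alpha member in ‘Ant’ was BraA09g019430.3C (alpha type-1-A), at 55.0 FPKM against 38.8 in ‘Mix’. In ‘Mix’ BraA01g031860.3C (alpha type-4-A) was higher, at 44.9 FPKM against 29.1 in ‘Ant’. The highest beta member was BraA02g037740.3C (beta type-7-A, which carries the trypsin-like site), at 71.3 and 33.3 FPKM, a ratio of 1.07. The other catalytic subunits were closer between the libraries on the deposited scale: beta type-6, with the caspase-like site, summed over its 2 genes to 14.9 FPKM in ‘Ant’ and 13.2 in ‘Mix’. Beta type-5, with the chymotrypsin-like site, summed over its 3 genes to 53.3 and 38.6 FPKM. The log2 ratio of the beta type-5 sums, 0.45, turned to -0.08 when centred and -0.40 without the window. That of beta type-6, 0.16, turned to -0.38 and -0.67. Beta type-7 stayed above 0, at 0.54 and 0.22, and without the window it was the closest of the 3. With assembled isoforms added (class j, described below), beta type-5 stood at 70.9 FPKM in ‘Ant’ and 40.5 in ‘Mix’, a deposited log2 ratio of 0.79. Beta type-2 was lower in ‘Ant’, with 16.5 FPKM over 4 genes against 22.4 in ‘Mix’, although none of its genes passed the cutoff.

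Alpha type-2 held the only core transcript called higher. BraA07g042190.3C (A07:28306338-28308048, 11 exons) stood at 33.4 FPKM in ‘Ant’ and 5.98 in ‘Mix’, 5.58-fold higher, with a ratio of 2.30 that fell below the cutoff when centred (1.76) and without the window (1.53). The second copy, BraA02g025160.3C, stood at 18.3 and 6.65 FPKM, and the third, BraA07g026340.3C, at 0.0493 and 0.112. Among reference transcripts, BraA07g042190.3C took 64.5% of the alpha type-2 level in ‘Ant’, and BraA02g025160.3C took 52.2% of it in ‘Mix’. The assembly also held class j isoforms, which share a splice junction with the reference gene but differ elsewhere. With them added, BraA07g042190.3C led in both libraries, with 52.4% in ‘Ant’ and 36.6% in ‘Mix’. Alpha type-4 had no such isoforms, and there BraA05g025160.3C took 50.01% in ‘Ant’ against 49.62% for BraA01g031860.3C, which took 73.9% in ‘Mix’. Over the 17 core and 19S subunits with more than 1 gene, the leading copy was the same in both libraries for 15 by reference transcripts and for 13 with isoforms added. The 4 others were then alpha type-4, beta type-3, beta type-5 and non-ATPase 2. Copies of a subunit can be near-identical, and the authors' counting could have split reads between them, so shares of copies are uncertain.

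The 19S particle was represented by 2 ATPase transcripts and 20 non-ATPase transcripts. Both ATPase transcripts encode subunit 4 (RPT2), and BraA01g008490.3C led them, at 22.7 FPKM in ‘Ant’ and 20.9 in ‘Mix’. Other ATPases of the ring are annotated as 26S protease regulatory subunits and so fell outside the choice. As a list of 14 transcripts, added after the descriptions had been read, they summed to 287 FPKM in ‘Ant’ and 194 in ‘Mix’, a ratio of 1.48 that became 0.806 without the window. Of the 12 that passed the filter, 2 were called higher and 0 lower, near the 21.2% and 9.48% of all, and 0 were higher when centred and 1 higher and 1 lower without the window. The non-ATPase transcripts summed to 246 FPKM in ‘Ant’ and 177 in ‘Mix’, a ratio of 1.39 that became 0.759 without the window. Among them BraA08g022930.3C (non-ATPase 4, or RPN10, a ubiquitin receptor) led in ‘Ant’, at 41.9 FPKM against 21.5 in ‘Mix’, a ratio of 0.93. In ‘Mix’ BraA07g039430.3C (non-ATPase 3) was higher, at 36.9 FPKM against 39.9 in ‘Ant’. With its class j isoform added, that gene stood at 48.6 FPKM in ‘Ant’ and 39.6 in ‘Mix’.

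The only proteasome transcript called lower was BraA03g054490.3C (A03:28275191-28279959, 22 exons), which encodes non-ATPase 2 (RPN1), a scaffold of the 19S base. Its reference transcript stood at 0.0372 FPKM in ‘Ant’ and 3.81 in ‘Mix’, a ratio of -2.21. That value belongs to 1 transcript and not to the gene. With its class j isoforms added, the gene stood at 12.01 FPKM in ‘Ant’ and 12.44 in ‘Mix’. A second RPN1 gene, BraA01g009020.3C, was at or near 0 as a reference transcript in both libraries and at 18.02 and 12.35 FPKM with its isoforms. The third, BraA08g018990.3C, had 5 estimated counts in ‘Ant’ and 0 in ‘Mix’, under the floor of 6. Summed over all 3 genes with isoforms, RPN1 stood at 30.03 and 24.78 FPKM.

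Assembly factors and the inhibitor were few and low, with 10 transcripts that summed to 38.07 FPKM in ‘Ant’ and 19.01 in ‘Mix’. They nevertheless held the other transcript called higher, BraA09g024010.3C (A09:16071285-16072554, 5 exons), described as non-ATPase 10, whose mammalian counterpart gankyrin chaperones assembly of the 19S base. It stood at 15.2 FPKM in ‘Ant’ and 1.97 in ‘Mix’, 7.71-fold higher, with a ratio of 2.45 that became 1.91 when centred and 1.82 without the window. A second gene of that description, BraA04g021230.3C, stood at 2.79 FPKM in ‘Ant’ and was listed at 0 in ‘Mix’, at least 49.6-fold higher. Without the window that bound was 27.1-fold. It overlapped an assembled transcript of the other strand that was also higher in ‘Ant’, at 7.39 FPKM against 0.99, and the strand setting of the counting was not stated. The third, BraA03g044230.3C, had 7 counts in ‘Ant’ and 3 in ‘Mix’, and the fourth had 6 and 0. Assembly chaperone 4, BraA06g004740.3C, went the other way, at 2.13 FPKM in ‘Ant’ and 4.34 in ‘Mix’. ECM29, a proteasome-associated adaptor, reached 0.111 and 0.0713 FPKM as a reference transcript (BraA08g001080.3C) and 8.22 and 5.02 with its isoforms.

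The subunits of the core and the 19S particle were also compared by their summed level. The FPKM was summed over the copies of each of 23 named subunits. It was higher in ‘Ant’ for 19 and lower for 4 on the deposited scale. When centred it was higher for 8 and lower for 15, and without the window higher for 6 and lower for 17. Of the 19909 single reference transcripts past the filter, 12393 were above 0 as deposited, 10331 when centred and 9888 without the window. The log2 ratio of the subunit sums had a median of 0.45 and ran from -2.21 (RPN1, before isoforms were added) to 1.94 (alpha type-2). These sums left out class j isoforms. With them, beta type-3 went from 46.2 FPKM in ‘Ant’ and 22.5 in ‘Mix’ to 100.8 and 37.1, the highest sum in ‘Ant’. Alpha type-3 and non-ATPase 5, 8 and 14 were names that none of the 64 descriptions carried, and those subunits were not analysed here.

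**Figure D2:**
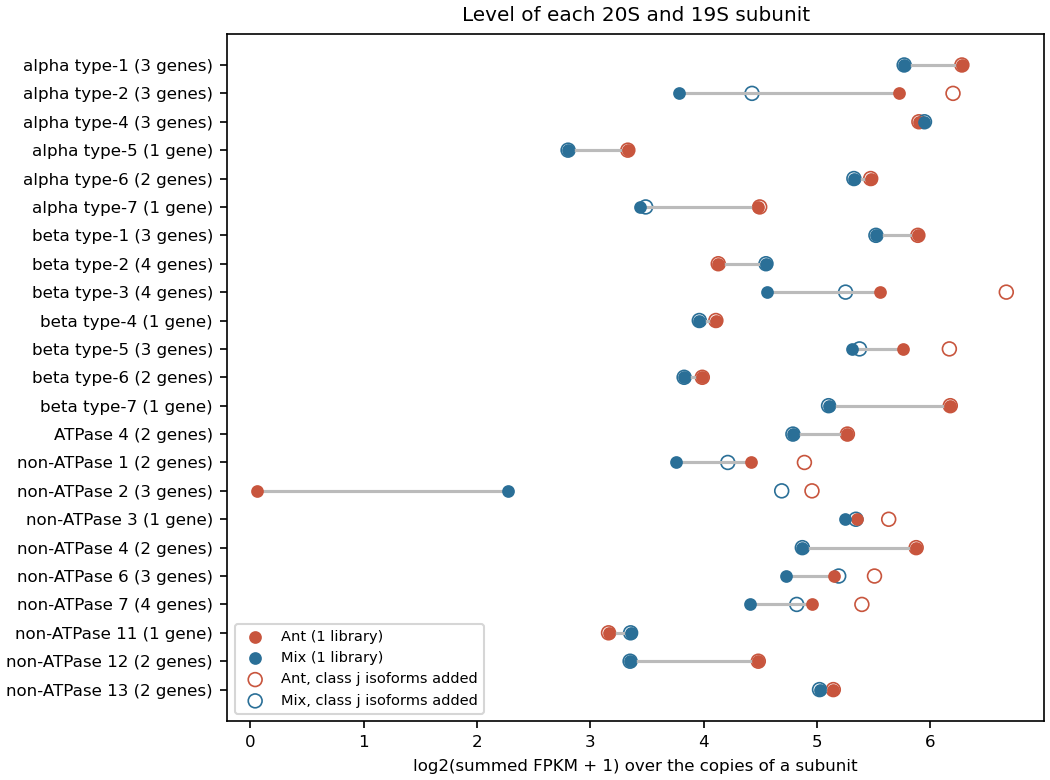
Level of each 20S and 19S subunit as log2(summed FPKM + 1) over its genes, in ‘Ant’ (red) and ‘Mix’ (blue), 1 library each; filled points are reference transcripts, open circles add the class j isoforms. ‘Ant’ lies to the right for 19 of 23 subunits on the deposited scale, and non-ATPase 2 is far apart between the libraries only before its isoforms are added.

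Among transcripts that passed the filter, those of autophagy were spread more widely than those of the proteasome, around a higher median. Of the 36, 21 reached an FPKM of 1 in either library and 15 did not. Among the 21, 6 were called higher in ‘Ant’ and 0 lower, against 21.2% higher and 9.48% lower of all reference transcripts. The 6 are 28.6% of the 21, and with so few transcripts that share is near the background of 21.2%. The median ratio was 1.36, with 16 members above 0 and 5 below, against 12393 and 7516 of all reference transcripts past the filter. When centred 13 were above 0 and 8 below, against 10331 and 9578, and without the window 12 and 9, against 9888 and 10021. The median stayed above 0 when centred (0.83) and without the window (0.66). Under each, 5 of the 6 calls were kept (5 of 21, against 15.2% and 16.3% of all). Over all 36 members, low ones included, the median was 0.30. That was below the 0.36 of all 64 proteasome transcripts and above the 0.11 of all reference transcripts. The summed FPKM was 486.4 in ‘Ant’ and 101.4 in ‘Mix’, a ratio of 4.795 that became 2.62 without the window.

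A few transcripts carried most of that sum. Without the highest ATG8a transcript the ratio of the sums was 3.54, without all ATG8 transcripts 3.28, and without ATG8 and ATG101 1.95. The ATG101 transcript, the called ATG5 transcript and an ATG18c gene are also among genes that the study singled out on these libraries, so their direction is not independent of that choice.

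ATG8, the ubiquitin-like protein that coats the growing membrane and recruits cargo, had 10 genes, and 4 of the 7 that passed the filter were called higher. That is 57.1% of only 7 transcripts, against 21.2% of all reference transcripts. When centred and without the window 3 of the 7 were called higher, against 15.2% and 16.3% of all. BraA09g025640.3C (ATG8a; A09:17254882-17255775, 5 exons) was the highest of the 36 transcripts, at 156 FPKM in ‘Ant’ and 8.06 in ‘Mix’, 19.4-fold higher. BraA03g023610.3C (ATG8e; A03:11333043-11333878) stood at 92.3 and 19.9 FPKM, 4.63-fold higher. Its ratio of 2.16 was the one call lost, at 1.62 when centred and 1.31 without the window.

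Both ATG8h genes were below 1 FPKM in ‘Mix’, so they passed the filter only through ‘Ant’, where they were high. In Arabidopsis, ATG8h and ATG8i belong to the branch that ends in an exposed glycine and needs no trimming before lipid attachment. BraA03g032690.3C (A03:16215486-16216574) stood at 30.5 FPKM in ‘Ant’ and 0.488 in ‘Mix’, 62.5-fold higher, with 41 estimated counts behind the lower value. BraA05g039000.3C (A05:26636167-26637311) stood at 19.5 and 0.0385 FPKM, with 4 counts in ‘Mix’, which gives a level at least 270-fold higher. Without the window that bound was 147-fold.

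The ATG8i gene did not share that pattern. BraA05g031480.3C stood at 11.5 FPKM in ‘Ant’ and 17.8 in ‘Mix’ as a reference transcript, and at 19.8 and 18.9 with its isoforms. The make-up of the ATG8 level therefore differed between the libraries. ATG8a led in ‘Ant’, with 49.3% of the summed reference level, followed by ATG8e BraA03g023610.3C with 29.1%. In ‘Mix’, the same ATG8e gene led with 40.0% and ATG8i followed with 35.7%. With class j isoforms added, the ATG8a gene still led in ‘Ant’ but with 39.7%, and the ATG8e gene in ‘Mix’ with 26.3%. The family summed to 317 FPKM in ‘Ant’ and 49.8 in ‘Mix’, a ratio of 6.36, or 3.85 without the highest ATG8a transcript.

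Of the proteins that attach ATG8 to lipid, the chosen genes covered ATG5 and ATG3, and ATG7 is described below. The 3 ATG5 and ATG3 transcripts past the filter had higher values in ‘Ant’ under all 3 scalings, although only 1 of the 3 was called. ATG5, part of the complex that promotes the attachment, had BraA10g022680.3C (A10:15907660-15910052, 8 exons) at 15.1 FPKM in ‘Ant’ and 1.22 in ‘Mix’, 12.5-fold higher and called on all 3 scalings. The second ATG5 gene, BraA02g006950.3C, was near 0 as a reference transcript, and with its isoform stood at 9.02 and 0.844 FPKM. ATG3, the conjugating enzyme, summed over its 2 genes to 14.3 FPKM in ‘Ant’ and 4.30 in ‘Mix’, with ratios of 1.36 and 1.37 for the separate genes.

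In the kinase complex, a single subunit stood apart. ATG101 (BraA09g009280.3C; A09:5298528-5299942, 7 exons), which in mammals stabilises ATG13, stood at 85.9 FPKM in ‘Ant’ and 8.84 in ‘Mix’, 9.72-fold higher, with a ratio of 3.14 that remained past the cutoff when centred (2.60) and without the window (2.34). Its partner ATG13 summed to 8.36 FPKM in ‘Ant’ and 8.89 in ‘Mix’ over 3 genes. ATG11, a scaffold of the complex, summed to 11.8 and 4.45 FPKM over 4 genes.

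Of the membrane proteins, no reference transcript was called. ATG2, a lipid transfer protein, stood at 8.93 FPKM in ‘Ant’ and 6.12 in ‘Mix’ (BraA05g028170.3C), and its ratio of 0.48 turned to -0.06 when centred and -0.30 without the window. ATG9, the transmembrane protein of the donor vesicles, summed to 7.44 and 3.01 FPKM over 2 genes. The 11 ATG18 transcripts were low, with 4 past the filter and none called. Among them, BraA07g025220.3C (ATG18a-like) led at 9.28 and 5.55 FPKM, while the other expressed ATG18a-like gene, BraA09g052060.3C, stood at 2.64 and 5.74. BraA03g055830.3C (ATG18b) stood at 3.37 FPKM in ‘Ant’ and 0.628 in ‘Mix’. With class j isoforms added, 1 ATG18 gene was called higher, BraA03g013760.3C (ATG18f), at 14.5 FPKM in ‘Ant’ and 2.08 in ‘Mix’. Its ratio of 2.33 was not past the cutoff when centred or without the window.

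**Figure D3:**
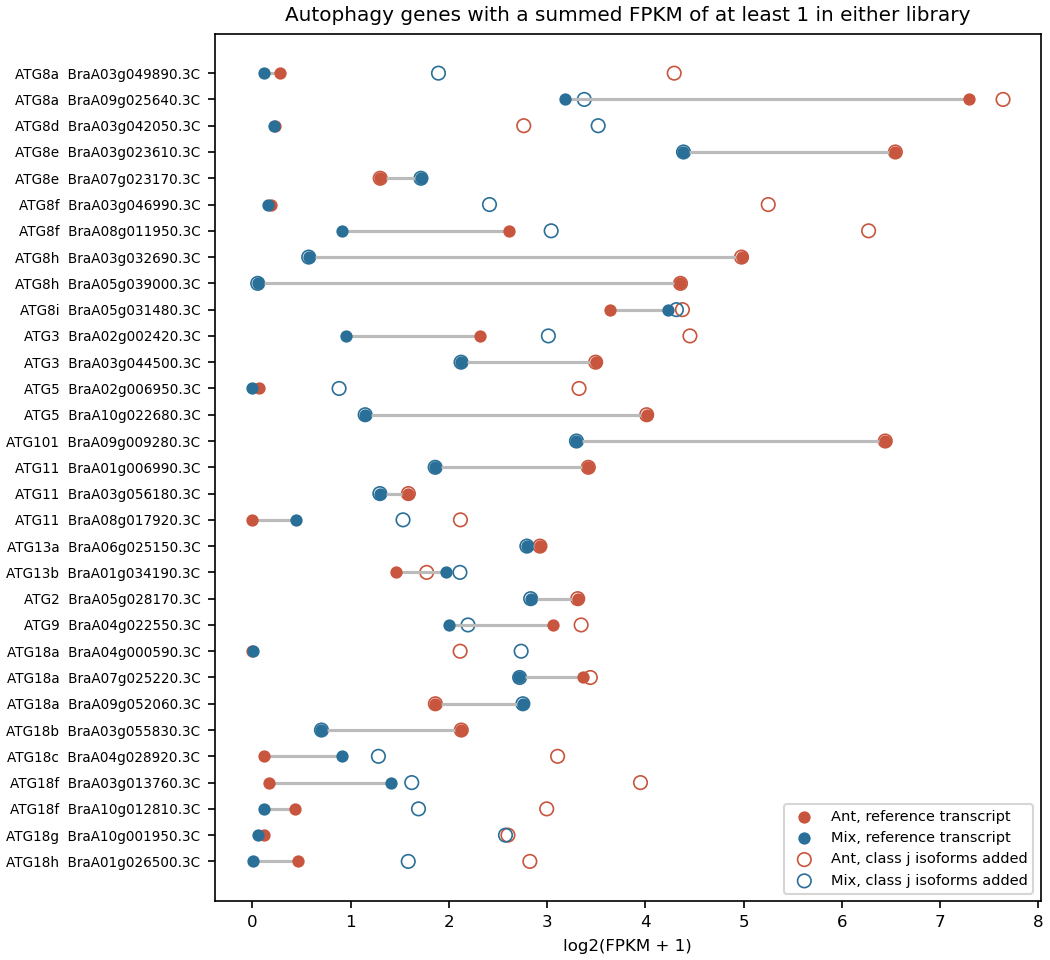
Level of each autophagy gene with a summed FPKM of at least 1 in either library, as log2(FPKM + 1), in ‘Ant’ (red) and ‘Mix’ (blue), 1 library each; filled points are the reference transcript and open circles add the class j isoforms. ATG8a, ATG8h, ATG5 and ATG101 genes show the widest gaps between filled points, and several genes near 0 as reference transcripts have open circles well above 0.

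Much of the autophagy level lay outside the reference transcripts. Of the 36 autophagy genes, 18 had class j isoforms, 20 in all, and these held 34.6% of the summed level in ‘Ant’ and 33.5% in ‘Mix’. Of the 64 proteasome genes, 15 had 17 such isoforms, with 16.81% and 12.03%. The reference models of all 100 genes had lengths that were multiples of 3, as coding sequences without untranslated ends have, whereas 32 of the 37 isoforms were longer than their reference. With isoforms added, 31 autophagy genes reached an FPKM of 1 in either library, and 11 were called higher and 0 lower, against 23.9% higher and 8.02% lower of 24106 genes summed in the same way. When centred 7 of the 31 were called higher, against 16.9%, and 0 lower, against 12.6%; without the window the counts were also 7 and 0, against 17.7% and 14.9%. For the proteasome, 56 genes reached it, with 2 called higher and 0 lower. When centred and without the window, 0 were called higher and 0 lower, against the same shares of all genes.

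Of the 5 genes gained, 3 were ATG8 genes, and the others were BraA02g006950.3C (ATG5) and BraA03g013760.3C (ATG18f). BraA08g011950.3C (ATG8f) went from 5.13 FPKM in ‘Ant’ and 0.885 in ‘Mix’ to 76.3 and 7.23 once isoforms were counted. BraA03g046990.3C (ATG8f-like) reached 37.1 and 4.33 FPKM, and BraA03g049890.3C (ATG8a) 18.6 and 2.72. The lowest alpha type-2 copy of the proteasome, BraA07g026340.3C, reached 16.2 and 6.36. With isoforms, the ATG8 family summed to 499.7 FPKM in ‘Ant’ and 75.8 in ‘Mix’, and ATG18 to 60.5 and 30.5. The ATG8d gene, BraA03g042050.3C, was lower in ‘Ant’, at 5.78 FPKM against 10.5.

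Isoform use itself could be compared for 32 genes that had isoforms and a summed FPKM of at least 1 in both libraries. In 22 the share of the gene level held by class j isoforms lay within 10 percentage points between the libraries, which is 68.8% of them, against 60.1% of 5638 reference genes. In 3 it was over 50 points higher in ‘Ant’ and in 0 over 50 points lower, against 7.29% and 2.22% of 5638 reference genes. The 3 are 9.38% of the 32, near that background. In BraA03g013760.3C (ATG18f) the share was 99.2% in ‘Ant’ and 20.2% in ‘Mix’. Its reference transcript was lower in ‘Ant’, at 0.121 FPKM against 1.66, while its isoforms were higher, at 14.3 against 0.419. In BraA04g028920.3C (ATG18c) the share was 98.9% and 38.4%. In BraA08g030630.3C (beta type-5-B) it was 80.4% and 12.7%: the reference transcript stood at 4.30 FPKM in ‘Ant’ and 13.1 in ‘Mix’, and the isoforms at 17.6 and 1.90. The other beta type-5 genes had no such isoforms, and BraA09g060420.3C stood at 28.0 and 13.6 FPKM. Over the 32 genes, the ratio of the reference transcript and that of the whole gene had opposite signs in 10, or 31.2%, near the 29.5% of all 5638.

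**Figure D4:**
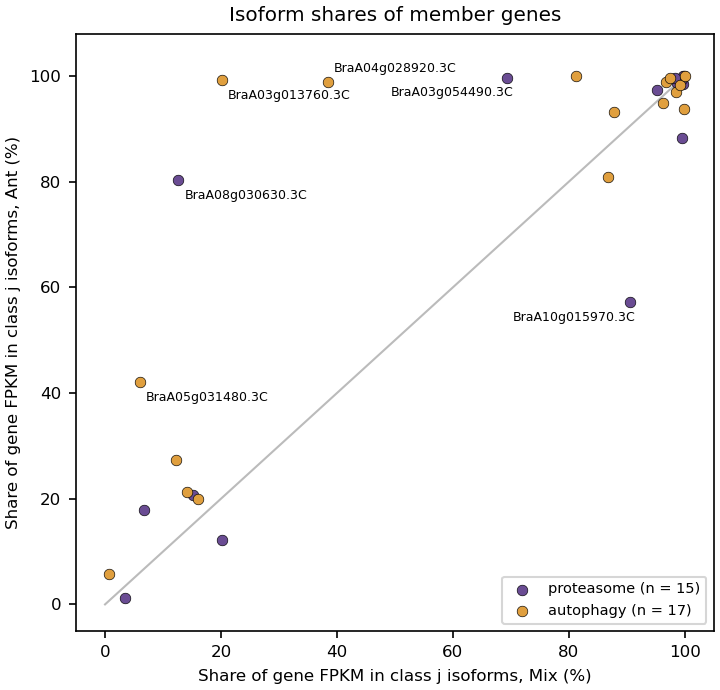
Share of each gene's FPKM held by class j isoforms in ‘Ant’ (vertical axis, percent) and ‘Mix’ (horizontal axis, percent) for 15 proteasome genes (purple) and 17 autophagy genes (orange), 1 library per group; the line marks equal shares, and genes over 30 points apart are named. Most points lie near the line, and the 3 genes over 50 points apart all lie above it.

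Other genes of the same routes were read from lists of words in the descriptions. On the ubiquitin side of the proteasome route (polyubiquitin, activating enzymes, CDC48 and shuttle receptors), 21 of 29 transcripts passed the filter, and 3 were called higher and 1 lower, against 21.2% and 9.48% of all. The median ratio was 0.59, and it went to 0.05 when centred and to -0.17 without the window. The largest difference was in polyubiquitin transcripts: BraA03g028390.3C stood at 66.6 FPKM in ‘Ant’ and 0.317 in ‘Mix’, and BraA09g024920.3C at 33.8 and 0.0559, whereas the highest one, BraA09g024910.3C, stood at 164 and 144. BraA03g028390.3C and BraA09g024920.3C were below 1 FPKM in ‘Mix’ and so passed the filter only through ‘Ant’. The one called lower, BraA06g025580.3C, stood at 1.43 and 8.79 FPKM. Polyubiquitin genes are made of repeats that resemble each other, so the split of reads among them is uncertain.

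On the autophagy route outside the 36, 20 of 28 transcripts passed the filter, and 4 were called higher and 1 lower. The 4 are 20.0% of the 20, at the background of 21.2%. The median ratio was 1.11, and it went to 0.57 when centred and to 0.55 without the window. ATG7, the activating enzyme upstream of ATG3, had 4 transcripts, of which 2 were called higher: BraA03g055940.3C stood at 7.79 FPKM in ‘Ant’ and 0.276 in ‘Mix’, and BraA05g029640.3C at 6.33 and 0.218. Both were below 1 FPKM in ‘Mix’, so they passed the filter only through ‘Ant’, where they were high. Their calls held when centred and without the window. The most abundant ATG7 transcript, BraA02g032310.3C, was not called, at 13.8 FPKM in ‘Ant’ and 7.76 in ‘Mix’, and the fourth did not pass the filter. The cargo receptor NBR1 had 3 transcripts that differed among themselves. BraA03g052020.3C stood at 15.4 FPKM in ‘Ant’ and 19.9 in ‘Mix’ and BraA01g015450.3C at 1.21 and 0.0101, and neither was called. The NBR1 transcript called higher, BraA08g020340.3C, stood at 16.1 and 2.12 FPKM and a beclin gene of the lipid kinase complex (BraA07g024790.3C) at 13.4 and 2.27, and neither call held under those scalings. The one called lower was ATG8-interacting protein 2 (BraA03g030150.3C), at 0.552 FPKM in ‘Ant’ and 12.01 in ‘Mix’.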

How the data were processed

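Per the study's methods, the authors used Cutadapt for trimming, Bowtie2 and TopHat2 for mapping (genome Brassica rapa v3.0) and StringTie for assembly; the labels also list HISAT2. The methods name Ballgown and the results Cuffdiff as the source of the deposited FPKM, so it is uncertain. The deposited estimated counts followed FPKM times length, rounded, and are not reads counted directly. The authors' circRNA table held deposited junction read counts and a scaled signal; it was used only to look up hosts, and 0 of the 100 genes hosted one of its 168 circRNAs. Columns of fold change and p-value from the authors' own comparison were not used.

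Ratios used a pseudocount of 1, which shrinks changes between low levels. Counts and medians took in transcripts that reached an FPKM of 1 in ‘Ant’ or ‘Mix’. Folds are ratios of deposited FPKM. A library at or under 6 estimated counts was taken as at the floor, because 1 estimated count stands for under 1 read, and folds against it are lower bounds; that value was set after the data were seen. Floors cover counting error only. Genes were named by rule: members past the cutoff, at most 12 in each direction; the highest member of each role; members listed at 0 in 1 library with an FPKM of at least 1 in the other; and copies of a subunit that differed by over 2 on the log2 scale while at least 1 copy passed the filter. Other members and genes of the route lists given with values were chosen after those values were seen. The members and lists were chosen with earlier results of these data known. Alternatives were pseudocounts of 0.1 and 0.01, centring on the median transcript, leaving out the 500 kb window, no filter, a filter of 5, summing class j isoforms and a cutoff of 1. Scripts ran in Python 3.11.15 with pandas 2.3.3 and numpy 2.4.6, and the ratio and counting steps were tested on simulated data. Strand setting and treatment of multiply mapped reads are not given in the sources used here.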

Additional observations from a re-analysis of the deposited data

How the results depend on the processing

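No paired analysis was possible because each group held 1 library. The count of proteasome transcripts called higher, 2 as deposited, was 5 with a pseudocount of 0.1 and 5 with 0.01, 0 when centred, 0 without the 500 kb window and 12 at a cutoff of 1. The count called lower, 1 as deposited, was 2 without the window, 0 with a filter of 5, 0 with class j isoforms summed and 2 at a cutoff of 1. The proteasome median, 0.49 as deposited, was -0.046 when centred and -0.25 without the window. The count of autophagy transcripts called higher, 6 as deposited, was 11 with class j isoforms summed and 12 at a cutoff of 1. The count called lower, 0 as deposited, was 1 with a pseudocount of 0.1, 1 with 0.01 and 1 at a cutoff of 1. The other values of these counts were within 1.5 times the deposited ones. The autophagy median was 0.30 with no filter and between 0.66 and 1.61 under the remaining alternatives. Of the 26 genes named by rule, 7 changed sign when centred, 5 without the window and 4 with isoforms summed. The limits are the single library per group, the library total on which FPKM rests, and the division of reads among isoforms and near-identical copies; their causes were not tested.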
